A study of Mus musculus with 12 samples.

Results

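The genes of the proteasome were described in CD44+ CD8+ T cells of a mouse melanoma model, in spleen, in cells that had left the tumor and in cells that were still in it. Members were all gene symbols of the count table that start with Psma, Psmb, Psmc, Psmd or Psme, followed by a number and at most 1 letter. The rule found 44 of 48397 symbols, and 42 of them passed the filter on low counts that left 21457 genes for testing. By role they are 7 alpha ring subunits and the testis alpha subunit Psma8, 4 structural beta subunits, 3 constitutive and 3 immunoproteasome catalytic beta subunits, and the thymus beta subunit Psmb11. The regulatory particle adds 6 base ATPases, 3 other base subunits, 8 lid subunits and 3 assembly chaperones, and 5 genes encode activators.

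The libraries came from 4 Kaede-transgenic mice, which carried tumors of YUMMER1.7, a mouse melanoma line. Kaede is a fluorescent protein that light turns from green to red, tumors were converted on day 11 and tissues taken on day 12, so a red cell outside the tumor had been inside it a day earlier. The 3 groups, of 4 libraries each, were CD44+ CD8+ T cells of the spleen with no Kaede color in their label, Kaede red+ CD44+ CD8+ T cells of the tumor-draining lymph node, called egressed here, and Kaede red+ CD44+ CD8+ T cells of the tumor, called tumor-retained. All 3 groups came from tumor-bearing transgenic mice, and neither cells of tumor-free mice nor the age of the mice enter the comparisons.

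The proteasome is the protease that degrades proteins tagged with ubiquitin. Its core is a stack of rings in which alpha subunits form the gate and beta subunits hold the active sites, and a regulatory particle of base and lid binds, unfolds and feeds the substrate. In lymphocytes and under interferon gamma the catalytic subunits Psmb5, Psmb6 and Psmb7 are replaced in new cores by Psmb8, Psmb9 and Psmb10, which changes the peptides that reach MHC class I, and Psme1 and Psme2 form a ring that can cap the core in place of the regulatory particle.

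Of the proteasome genes, 2 passed the test in any comparison, both between tumor-retained and spleen cells: Psme3, a nuclear activator of the core, was lower and Psmd8, a lid subunit, was higher. Over all tested genes 1.39% were called lower and 1.02% higher there, and under 21 alternative settings Psme3 passed in 8 and Psmd8 in 10. Their upstream sequences are shown because they are the members with a call. They were taken from the RefSeq promoter table (build GRCm38.p6), which matched 37 of the 44 genes, run 5′ to 3′ on the strand of the gene and end just before its annotated transcripts. Neither held any of the 3 motifs searched, so no base is in capitals. The first is the 150 bases chr11:101316063-101316212 on the plus strand, upstream of Psme3. The second is 122 bases, chr7:29180702-29180823 on the minus strand, upstream of Psmd8.
Psme3: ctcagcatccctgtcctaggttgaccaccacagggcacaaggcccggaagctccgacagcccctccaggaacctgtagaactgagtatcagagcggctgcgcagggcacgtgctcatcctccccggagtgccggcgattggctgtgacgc
Psmd8: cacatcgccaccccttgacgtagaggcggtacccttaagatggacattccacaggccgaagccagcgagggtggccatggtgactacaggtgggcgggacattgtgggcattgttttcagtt

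Motifs were sought on both strands in the 250 bases before and 50 after each start, among 32851 promoters. The core of the interferon-stimulated response element, 2 runs of GAAA with any 2 bases between them, was in 3.44% of all promoters and in those of 4 members, Psmb3, Psmd4, Psmd9 and Psme1. The gamma-activated site TTCNNNGAA was in 8.3% of all promoters and in those of Psmb8 and Psmd2. The antioxidant response core TGACNNNGC, the kind of site through which Nfe2l1 is known to act on proteasome genes, was in 12.4% of all promoters and in those of 6 members: Psmb5, Psmb6, Psmc6, Psmd9, Psmd12 and Psme4. Apart from overlap between the strands of the palindromic gamma-activated site, no matches overlapped. A match is a string of letters and not a shown binding site.

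Spleen libraries totalled 27.3 to 33.4 M counts (M, mega), egressed libraries 22.7 to 29.2 M and tumor-retained libraries 25.6 to 36.3 M. At these depths a count of 0 leaves room for 0.0827 to 0.132 counts per M (CPM). Levels are CPM scaled with TMM factors, differences are log2 fold changes ± SE from edgeR, and a gene passed at a Benjamini-Hochberg adjusted p under 0.05 over all tested genes. Egressed libraries 3 and 4 and tumor-retained library 1 had counts for 14927 to 15296 symbols, against 30658 to 32165 in spleen. Tumor-retained libraries 3 and 4 held transcripts of other cells. The summed level of 12 macrophage markers was 2163 and 3481 CPM there, against 37.6 and 23.1 CPM in tumor-retained libraries 1 and 2, 4.74 to 105 CPM in egressed and 25.3 to 84.2 CPM in spleen libraries. The 9 stromal and endothelial markers summed to 4253 and 2107 CPM there, and to 73.8 to 165 CPM in the other 10 libraries. The endothelial gene Pecam1 did not follow that sum, at 95.3 and 63.1 CPM there against 134 to 150 CPM in spleen libraries. Cdh5, also endothelial, was at 13.85 and 0 CPM there. The 8 CD8 T cell markers summed to 4123 and 5192 CPM in those libraries and to 6149 to 7384 CPM elsewhere. Among them Cd44 went the other way, at 332 and 411 CPM in those libraries and 49.7 to 184 CPM elsewhere. In sorted bulk cells, fewer cells of a type and less RNA per cell cannot be told apart.

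Proteasome transcripts made up 0.628 to 0.68% of the counts of spleen libraries and 0.672 to 0.761% of those of egressed libraries. In tumor-retained libraries they made up 0.643 to 0.759%. In this share, taken before TMM scaling, egressed libraries 1 to 3 were above every spleen library and egressed library 4 was within the spleen range. Summed over members, levels were 6766, 6565, 7123 and 6760 CPM in spleen libraries 1 to 4. They were 7327, 6602, 7012 and 6349 CPM in egressed libraries and 7129, 5985, 7915 and 6920 CPM in tumor-retained libraries, so the 3 groups overlapped. Tumor-retained library 3 was above its group's mean in log2 CPM for 34 members and tumor-retained library 2 for 10. Within a group, the median SD of a member's log2 CPM was 0.117 in spleen, 0.285 in egressed and 0.394 in tumor-retained libraries, against 0.4, 1.583 and 1.246 over all tested genes. Those genes were not matched to the members in level.

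**Figure D1:**
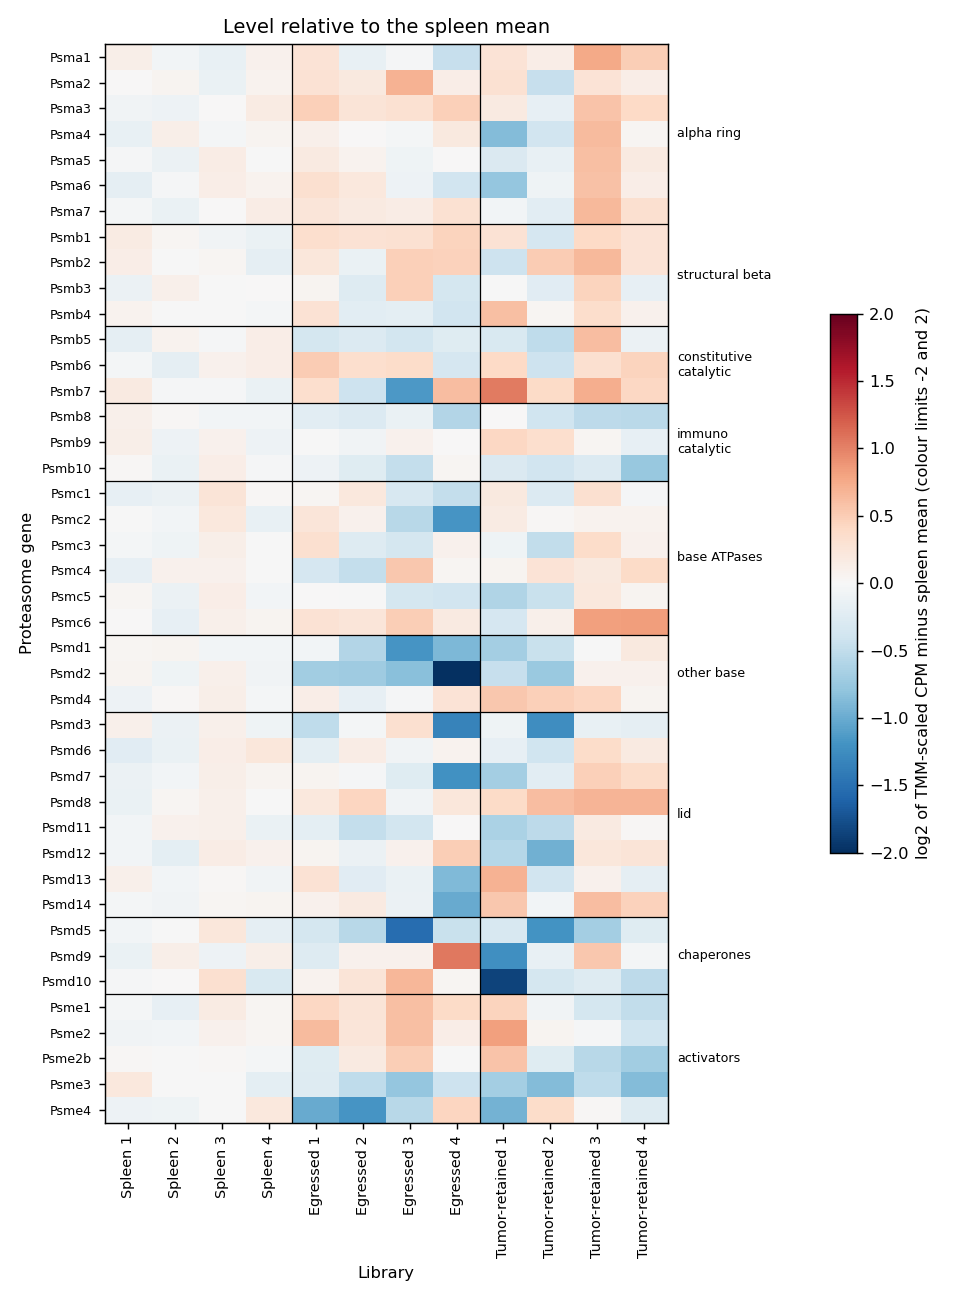
Each cell is the log2 TMM-scaled CPM of 1 tested proteasome gene (rows, grouped by role) in 1 of 12 libraries (columns), minus that gene's spleen mean, in blue where lower and red where higher. Spleen libraries lie close to their mean for nearly every gene, the egressed and tumor-retained columns vary from library to library, and Psme3 is lower than the spleen mean in each egressed and tumor-retained library.

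Between egressed and tumor-retained cells, the comparison of cells that left the tumor with cells that stayed, no member was called higher, where 0.508% of all tested genes were, and none lower, where 0.587% were. DESeq2 called no member, where it called 4.18% of all genes higher and 4.82% lower, and limma-trend none, where it called 0.825% higher and 0.839% lower. At an unadjusted p under 0.05, 2 members were higher, against 9.57% of all genes, and 5 lower, against 7.81%. The median log2 fold change of the 42 members was -0.03, against 0.00 over all genes, and it spanned -0.76 for Psmd2 to 0.91 for Psmd10. Psmd10, a chaperone of base assembly, was the 1 member whose 4 egressed libraries were all above the 4 tumor-retained ones, a pattern that 3.14% of all genes showed. Its levels were 38.2, 43.4, 57.6 and 37.4 CPM in egressed and 10.1, 28.4, 30.4 and 25.3 CPM in tumor-retained libraries, a difference of 0.91 ± 0.37 that did not pass (edgeR adjusted p = 0.217). No member had all egressed libraries below all tumor-retained ones, where 3.21% of all genes did.

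Between egressed and spleen cells no member passed either, where 0.196% of all genes were called higher and 0.172% lower. DESeq2 called no member, where it called 1.3% of all genes higher and 1.08% lower, and limma-trend none, where it called 0.322% higher and 0.862% lower. At an unadjusted p under 0.05, 2 members were higher, against 2.05% of genes, and 4 lower, against 6.74%. The members' median log2 fold change was -0.01 and that of all genes -0.13. For 6 members, Psma2, Psma3, Psmb1, Psmc6, Psme1 and Psme2, every egressed library was above every spleen library, a pattern of 2.94% of all genes. For 6 others, Psmb5, Psmb8, Psmd1, Psmd2, Psmd5 and Psme3, every egressed library was below, as for 11.1% of all genes.

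Between tumor-retained and spleen cells 1 member rose, Psmd8, where 1.02% of all genes were called higher, and 1 fell, Psme3, where 1.39% were called lower. DESeq2 called 3 members higher (Psma1, Psmd4 and Psmd8) and Psme3 lower, where it called 4.79% and 3.55% of all genes. limma-trend called Psmd8 and Psme3, where it called 1.16% higher and 3.07% lower. At an unadjusted p under 0.05, 3 members were higher, against 5.1% of genes, and 3 lower, against 11.6%. The members' median log2 fold change was 0.05 and that of all genes -0.15. Groups did not overlap for 3 higher members, Psma1, Psmb7 and Psmd8 (4.43% of all genes), and for 3 lower ones, Psmb10, Psmd5 and Psme3 (15.9% of all genes). Both comparisons with spleen share the spleen libraries.

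**Figure D2:**
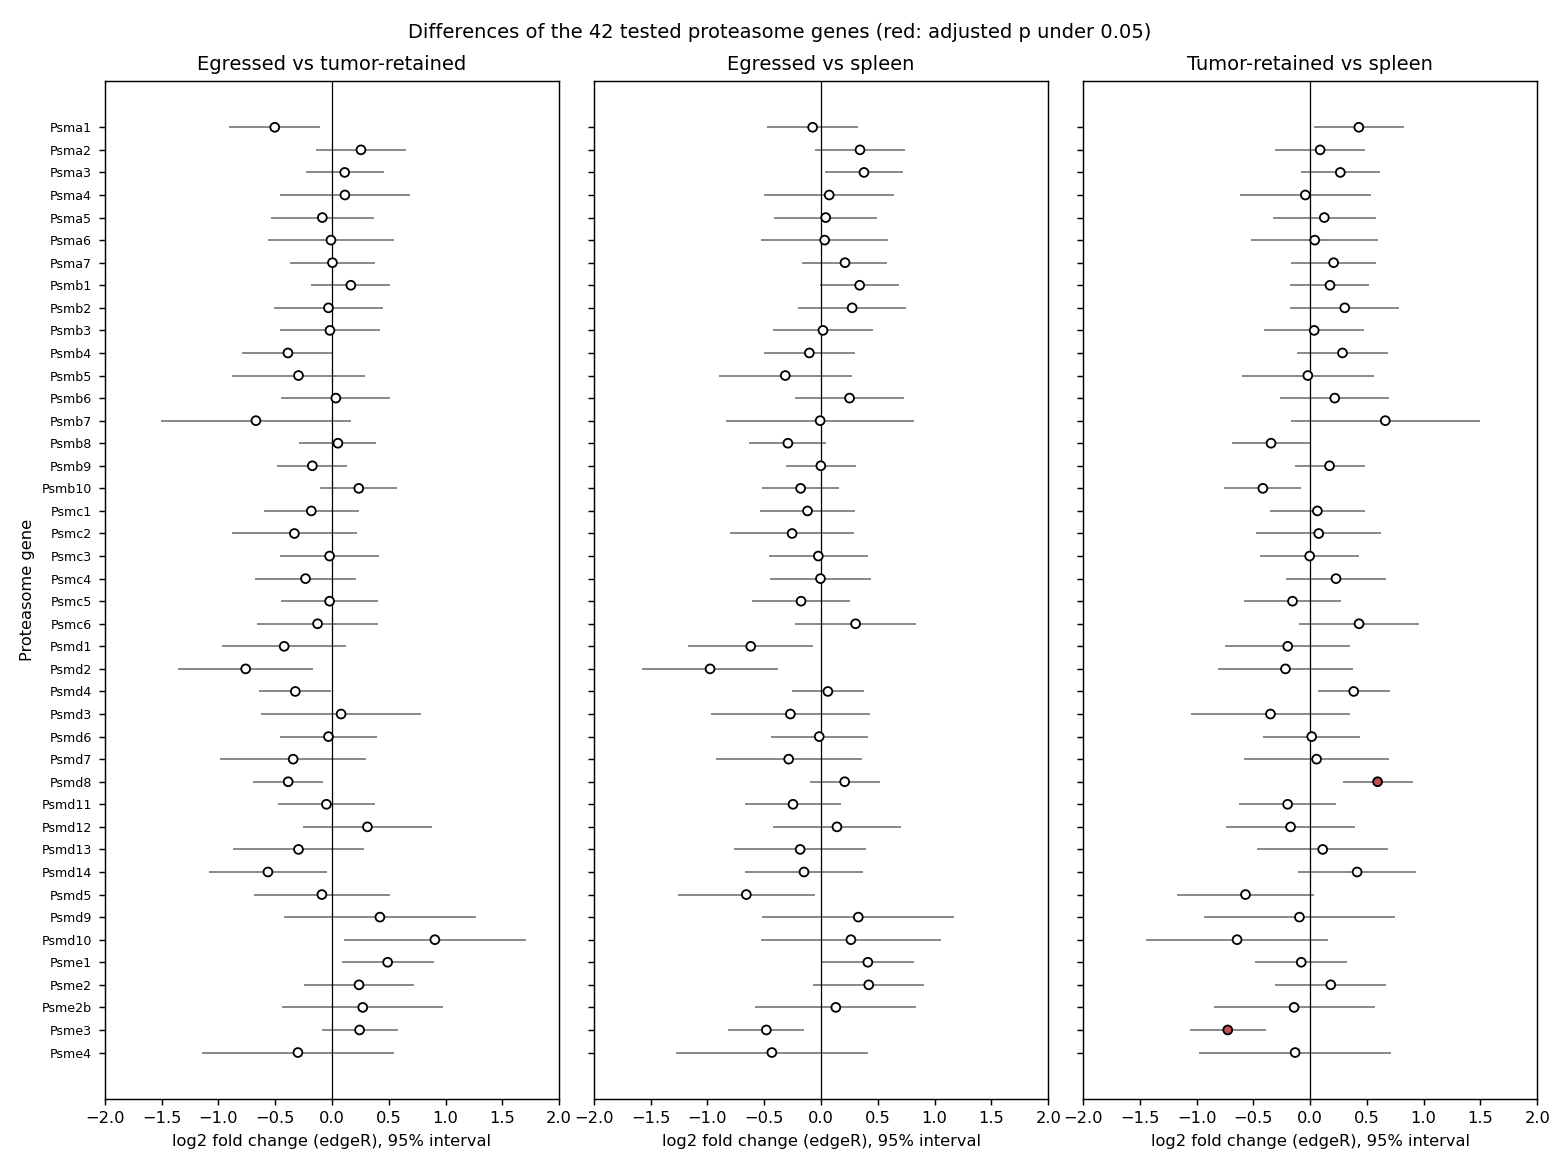
The log2 fold change (x axis) of each of the 42 tested proteasome genes (y axis, by role) is shown in 3 panels, 1 for each comparison, with its 95% interval as a line and red points for adjusted p under 0.05. All points lie between -1 and 1, and the red points are Psmd8 (0.59) and Psme3 (-0.72) in tumor-retained against spleen.

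Sizes of change were small in all 3 comparisons. An absolute log2 fold change under 0.5 was found for 37 of 42 members between egressed and tumor-retained cells, 39 between egressed and spleen and 37 between tumor-retained and spleen. These were 88.1%, 92.9% and 88.1% of the tested members, and the shares over all tested genes were 36.2%, 46.1% and 38.1%. No member reached an absolute value of 1 in any comparison. The median SE of a member was 0.21 on the log2 scale and that of a gene overall 1.32 to 1.34, so the median member was measured with less error than the median gene. No set of genes of like level was compared. The shares therefore do not show that small changes are particular to proteasome genes.

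The alpha ring closes the core and docks activators. Its 7 genes summed to 1108, 1100, 1121 and 1216 CPM in spleen, to 1387, 1242, 1310 and 1233 CPM in egressed and to 1116, 999, 1695 and 1369 CPM in tumor-retained libraries. Every egressed sum was above every spleen sum, and the tumor-retained sums spanned both, with the highest in library 3. How often sums of other gene sets separate in this way was not computed, here or for the other roles. None of the 7 passed in any comparison. Against spleen, 6 of 7 fold changes were above 0 in egressed cells (median 0.07) and 6 of 7 in tumor-retained cells (median 0.13). Psma3 was at 188, 183, 199 and 221 CPM in spleen and 275, 235, 243 and 274 CPM in egressed libraries, which do not overlap, and its difference of 0.38 ± 0.16 did not pass (edgeR adjusted p = 0.47). Psma1 was at 180, 159, 148 and 174 CPM in spleen, 198, 149, 162 and 120 CPM in egressed and 199, 181, 280 and 231 CPM in tumor-retained libraries. Its difference was 0.43 ± 0.18 between tumor-retained and spleen (edgeR adjusted p = 0.248) and -0.50 ± 0.18 between egressed and tumor-retained (edgeR adjusted p = 0.177). The testis subunit Psma8 had 3, 3, 2 and 9 counts in spleen libraries, 16, 0, 0 and 0 in egressed and 0, 40, 2 and 0 in tumor-retained libraries. It was too low for a test.

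The structural beta subunits Psmb1, Psmb2, Psmb3 and Psmb4 complete the inner rings without active sites. Their sums were 605 to 669 CPM in spleen, 623 to 799 CPM in egressed and 638 to 882 CPM in tumor-retained libraries, and the groups overlapped. None passed, and log2 fold changes against spleen were -0.10 to 0.34 for egressed and 0.04 to 0.31 for tumor-retained cells. Psmb1 was highest in egressed cells, at 236, 230, 232 and 254 CPM against 210, 192, 179 and 171 CPM in spleen. The groups did not overlap, and the difference of 0.34 ± 0.16 did not pass (edgeR adjusted p = 0.591).

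Of the constitutive catalytic subunits, Psmb5 carries the chymotrypsin-like, Psmb6 the caspase-like and Psmb7 the trypsin-like activity. Psmb5 was at 44.7, 53.4, 49.7 and 55.8 CPM in spleen, 39.7, 41.8, 39.2 and 43.0 CPM in egressed and 41.0, 35.6, 77.4 and 46.8 CPM in tumor-retained libraries. The egressed libraries lay below spleen with a narrow spread, and tumor-retained library 3 lay above all others. The log2 fold change was -0.32 ± 0.27 for egressed against spleen (edgeR adjusted p = 1) and -0.02 ± 0.27 for tumor-retained against spleen (edgeR adjusted p = 0.994). Of the 50-base words of the Psmb5 transcript, 57.1% also occur in other genes, chiefly the predicted gene Gm3375, so its count is uncertain.

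Psmb6 was at 136, 123, 147 and 152 CPM in spleen, 198, 175, 180 and 110 CPM in egressed and 183, 104, 174 and 189 CPM in tumor-retained libraries. In the egressed and in the tumor-retained group 3 libraries lay above spleen and 1 below all of them, and no difference passed (log2 fold changes of 0.25 ± 0.22 and 0.22 ± 0.22 against spleen). Psmb7 was at 32.3, 27.8, 28.1 and 25.8 CPM in spleen, 35.9, 21.3, 12.8 and 43.5 CPM in egressed and 58.7, 37.0, 46.9 and 37.9 CPM in tumor-retained libraries. The tumor-retained libraries were all above spleen and the egressed ones lay on both sides, and the difference of tumor-retained from spleen, 0.66 ± 0.38, did not pass (edgeR adjusted p = 0.474). An exon of Nek6, a kinase gene on the opposite strand, overlaps Psmb7 exons over 405 bases, and strand was not stated. Nek6 was at 20.3, 39.7, 48.6 and 75.4 CPM in tumor-retained libraries, 1.08 to 7.15 CPM in spleen and 0 to 11.2 CPM in egressed libraries, and its part in the Psmb7 counts was not tested.

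The immunoproteasome subunits Psmb8, Psmb9 and Psmb10 (Psmb8 and Psmb9 lie beside Tap1 in the MHC region of chromosome 17) were abundant in every library. Psmb8, the chymotrypsin-like subunit, was at 267, 252, 239 and 240 CPM in spleen, 215, 207, 228 and 166 CPM in egressed and 252, 190, 174 and 171 CPM in tumor-retained libraries. All egressed libraries were below all spleen libraries, and so were 3 of the 4 tumor-retained ones. The differences from spleen of -0.29 ± 0.16 (egressed, edgeR adjusted p = 0.731) and -0.34 ± 0.16 (tumor-retained, edgeR adjusted p = 0.289) did not pass.

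Psmb9, the subunit in the place of Psmb6, was at 298, 255, 292 and 255 CPM in spleen, 273, 260, 291 and 274 CPM in egressed and 364, 347, 281 and 245 CPM in tumor-retained libraries. Spleen and egressed values interleaved, tumor-retained libraries 1 and 2 were above all others, and no difference passed. The 95% interval of the log2 difference between egressed and spleen was -0.31 to 0.31, and that between tumor-retained and spleen -0.14 to 0.48. Of the 50-base words of Psmb9, 12.5% are shared with Tap1, whose exons overlap it on the opposite strand.

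Psmb10, the subunit in the place of Psmb7, was at 236, 212, 255 and 228 CPM in spleen, 218, 197, 168 and 240 CPM in egressed and 191, 178, 193 and 137 CPM in tumor-retained libraries. Every tumor-retained library was below every spleen library, with a difference of -0.42 ± 0.16 that did not pass (edgeR adjusted p = 0.178), and egressed libraries overlapped both. Summed, the 3 subunits were at 801, 720, 785 and 723 CPM in spleen, 705, 663, 687 and 680 CPM in egressed and 806, 715, 648 and 553 CPM in tumor-retained libraries. All egressed sums were below the spleen sums, and the lowest sums were in tumor-retained libraries 3 and 4, which held the macrophage and stromal transcripts, whose part in the sums was not tested. Between egressed and tumor-retained cells, the 95% interval of the log2 difference was -0.29 to 0.39 for Psmb8, -0.48 to 0.14 for Psmb9 and -0.10 to 0.57 for Psmb10.

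**Figure D3:**
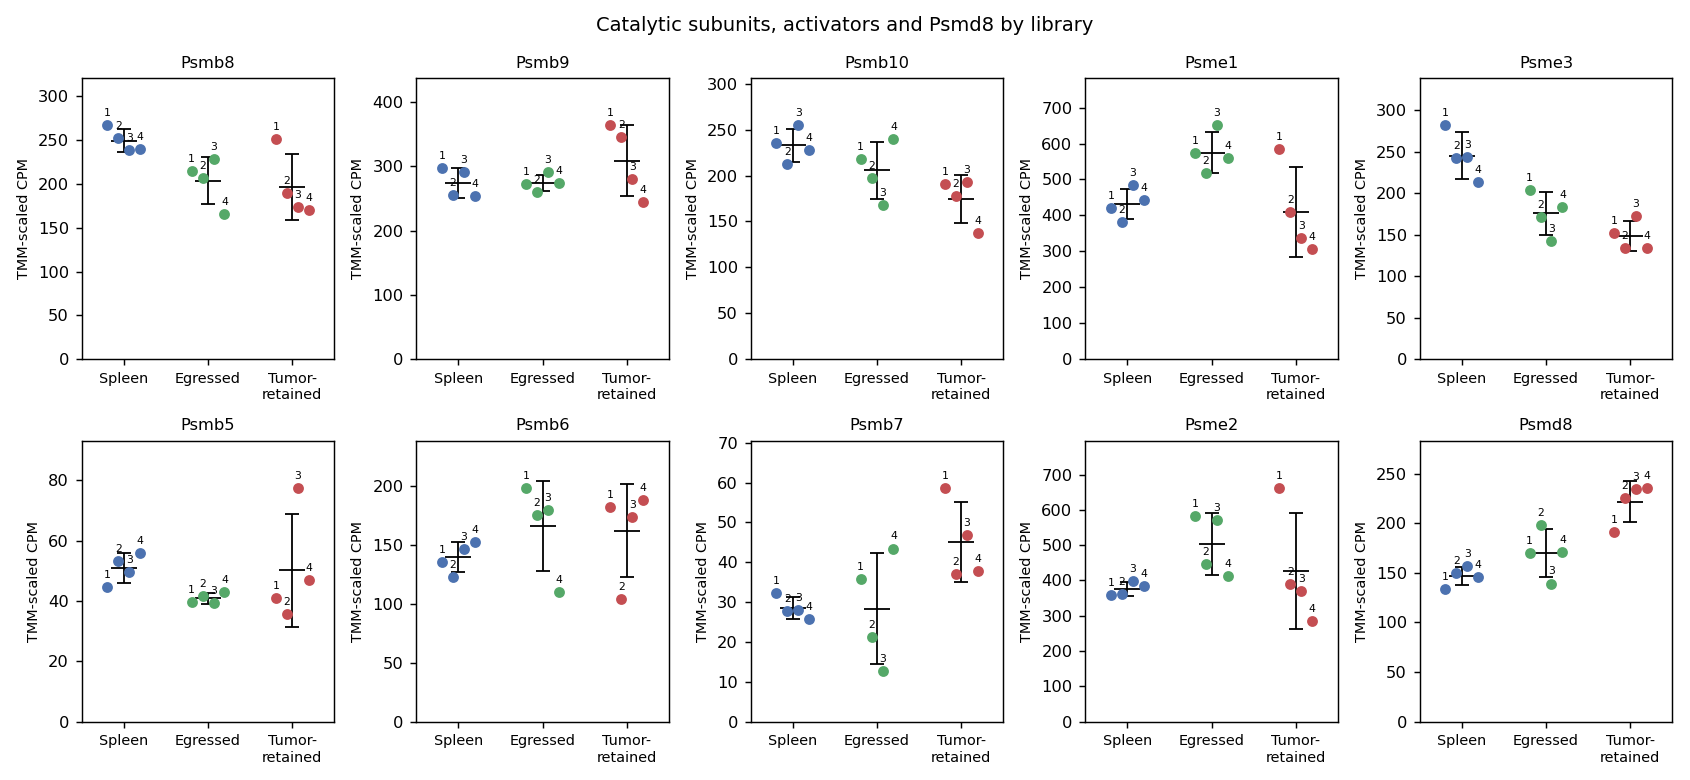
Points are TMM-scaled CPM (y axis, from 0) of 10 proteasome genes in each library, numbered by replicate, for the 3 groups (x axis), with the mean and SD over 4 libraries in black. Psme3 is 213 to 282 CPM in spleen and 134 to 172 CPM in tumor-retained cells, Psmd8 is 134 to 157 CPM in spleen and 191 to 236 CPM in tumor-retained cells, and the groups overlap for Psmb9.

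Each immunoproteasome subunit was set against the subunit it replaces, as a ratio of CPM per kb of the principal transcript. Psmb8 over Psmb5 was 3.30, 2.61, 2.65 and 2.37 in spleen, 2.99, 2.73, 3.22 and 2.13 in egressed and 3.39, 2.95, 1.24 and 2.02 in tumor-retained libraries. Psmb9 over Psmb6 was 1.29, 1.22, 1.17 and 0.987 in spleen, 0.812, 0.874, 0.953 and 1.47 in egressed and 1.18, 1.97, 0.953 and 0.768 in tumor-retained libraries. For both pairs the 3 groups overlapped, and Psmb8 was above Psmb5 per kb in all 12 libraries while Psmb9 and Psmb6 were on either side of 1. In the tumor-retained group both ratios were lower in libraries 3 and 4, which held the macrophage and stromal transcripts, than in libraries 1 and 2. The part of those transcripts in the ratios was not tested. The denominator Psmb5 shares 57.1% of its 50-base words with other genes, so its count is uncertain.

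Psmb10 over Psmb7 was 6.46, 6.75, 8.03 and 7.84 in spleen, 5.37, 8.18, 11.6 and 4.89 in egressed and 2.87, 4.26, 3.64 and 3.20 in tumor-retained libraries. The tumor-retained ratios, with a mean of 3.49 ± 0.60 (SD, n = 4), were all below those of the other groups, which overlapped with means of 7.27 ± 0.78 and 7.52 ± 3.10 (SD, n = 4). No test was run on the ratios, and the denominator is the gene that overlaps Nek6. The ratios depend on the length used: with the summed length of all annotated exons the means of Psmb10 over Psmb7 were 16.5, 17.0 and 7.92, and Psmb8 over Psmb5 fell to as low as 0.597.

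**Figure D4:**
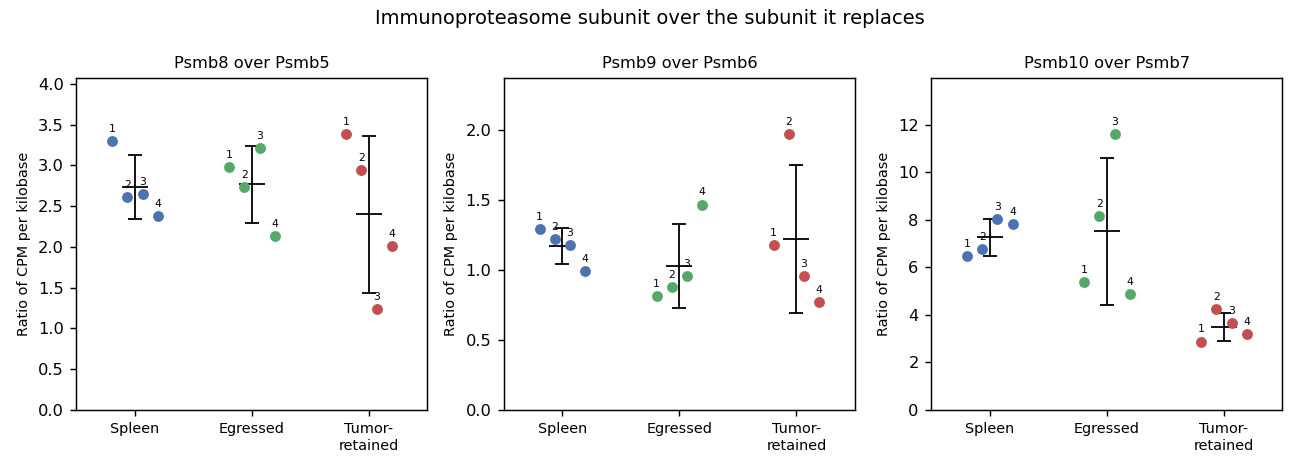
Each point is the ratio of CPM per kb (y axis, from 0) of an immunoproteasome subunit over the constitutive subunit it replaces, in 1 library, numbered by replicate, with the mean and SD over 4 libraries in black, for the 3 groups (x axis). The ratios overlap between groups for Psmb8 over Psmb5 and Psmb9 over Psmb6, and for Psmb10 over Psmb7 tumor-retained libraries lie at 2.87 to 4.26, below the others.

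The thymus subunit Psmb11, which in the mouse shapes CD8 T cell selection in cortical epithelium, had 2, 15, 0 and 5 counts in spleen, 0, 1, 1 and 0 in egressed and 0 in each of the tumor-retained libraries. It was too low for a test, and 0 counts allowed up to 0.0827 to 0.117 CPM in a tumor-retained library.

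The base ATPases Psmc1 to Psmc6 unfold the substrate and open the gate. None passed, their sums were 859 to 1002 CPM in spleen, 760 to 963 CPM in egressed and 823 to 1112 CPM in tumor-retained libraries, and their log2 fold changes against spleen were -0.26 to 0.30 for egressed and -0.16 to 0.43 for tumor-retained cells. All 6 were below 0 for egressed against tumor-retained cells, with a median of -0.16. Psmc6 was the member of this role above spleen in every egressed library, at 104, 100, 120 and 95.5 CPM against 85.1, 75.5, 90.6 and 88.2 CPM, and its difference of 0.30 ± 0.24 did not pass (edgeR adjusted p = 1).

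The other base subunits are the scaffolds Psmd1 and Psmd2, where shuttle factors dock, and the ubiquitin receptor Psmd4. Their sums were 665 to 724 CPM in spleen and 579, 487, 453 and 412 CPM in egressed libraries, which do not overlap, and 632, 596, 781 and 739 CPM in tumor-retained libraries. Psmd2 was at 343, 310, 353 and 315 CPM in spleen, 205, 201, 184 and 81.3 CPM in egressed and 239, 198, 351 and 348 CPM in tumor-retained libraries. All egressed libraries were below spleen. Tumor-retained libraries 3 and 4, which held the macrophage and stromal transcripts, were at the spleen level while tumor-retained libraries 1 and 2 were near the egressed level. The part of those transcripts in the Psmd2 levels, and in its difference between egressed and tumor-retained cells, was not tested.

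Psmd2 had the largest difference of any member between egressed and spleen, -0.98 ± 0.27 (unadjusted p = 0.00378), which did not pass (edgeR adjusted p = 0.192), and differed by -0.76 ± 0.27 from tumor-retained cells (edgeR adjusted p = 0.171). Of its 50-base words, 26.4% are shared, mostly with the predicted gene Gm5422. Psmd1 was at 162, 164, 152 and 152 CPM in spleen and 151, 105, 69.2 and 84.6 CPM in egressed libraries, a difference of -0.62 ± 0.25 (edgeR adjusted p = 0.445). Psmd4, in contrast, was at 223, 181, 200 and 246 CPM in egressed against 189 to 220 CPM in spleen libraries, and at 295, 284, 274 and 211 CPM in tumor-retained libraries. Its difference of 0.38 ± 0.15 between tumor-retained and spleen did not pass in edgeR (adjusted p = 0.187) and passed in DESeq2 (0.57, adjusted p = 0.0168).

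The lid holds Psmd14, the deubiquitinase that removes the ubiquitin chain, and 7 other subunits here. Its sums were 1076 to 1196 CPM in spleen, 912 to 1111 CPM in egressed and 893 to 1384 CPM in tumor-retained libraries. Psmd8 (chromosome 7, positions 29174188 to 29180701, minus strand) was at 134, 150, 157 and 146 CPM in spleen, 170, 198, 139 and 171 CPM in egressed and 191, 225, 234 and 236 CPM in tumor-retained libraries. All tumor-retained libraries were above all spleen libraries, and egressed libraries overlapped both.

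Psmd8 rose by 0.59 ± 0.14 in tumor-retained against spleen cells (edgeR adjusted p = 0.0499). It was 0.21 ± 0.14 above spleen in egressed cells and -0.39 ± 0.14 for egressed against tumor-retained cells, neither of which passed (edgeR adjusted p = 0.962 and 0.18). The call lies at the threshold: it was lost without tumor-retained libraries 3 and 4 (0.48, edgeR adjusted p = 0.235), without tumor-retained library 2, 3 or 4, without any 1 of the 4 spleen libraries and without egressed library 1. It was also lost with the replicate block, at 0.59 (edgeR adjusted p = 0.126). None of its 50-base words occurs in another gene. Of the other lid genes none passed, and log2 fold changes lay between -0.56 ± 0.24 and 0.41 ± 0.24, both of Psmd14, for egressed against tumor-retained and for tumor-retained against spleen.

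The chaperones Psmd5, Psmd9 and Psmd10 assemble the base and leave the finished particle. Psmd5 was at 115, 119, 140 and 106 CPM in spleen, 93.6, 80.9, 41.2 and 87.7 CPM in egressed and 95.9, 51.9, 74.1 and 101 CPM in tumor-retained libraries. Egressed and tumor-retained cells were below spleen in every library, and the differences of -0.66 ± 0.28 (edgeR adjusted p = 0.47) and -0.57 ± 0.28 (edgeR adjusted p = 0.339) did not pass. Psmd9 did not pass in any comparison and varied from 16.6 CPM in tumor-retained library 1 to 80.5 CPM in egressed library 4.

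Among the activators, Psme1 and Psme2 encode the interferon-inducible ring. Psme1 was at 420, 383, 485 and 442 CPM in spleen, 573, 517, 651 and 559 CPM in egressed and 586, 410, 337 and 305 CPM in tumor-retained libraries. All egressed libraries were above spleen, tumor-retained library 1 was at the egressed level, and tumor-retained libraries 3 and 4 were below spleen. The differences of 0.41 ± 0.19 from spleen (edgeR adjusted p = 0.552) and 0.49 ± 0.19 from tumor-retained cells (edgeR adjusted p = 0.192) did not pass. The latter was 0.71 and passed without tumor-retained library 1 (edgeR adjusted p = 0.0398), and was 0.22 without tumor-retained libraries 3 and 4 (edgeR adjusted p = 0.512).

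Psme2 was at 358, 363, 399 and 384 CPM in spleen, 583, 446, 573 and 411 CPM in egressed and 662, 391, 370 and 285 CPM in tumor-retained libraries. The egressed libraries were all above spleen and the tumor-retained ones had the same order as for Psme1. The difference of 0.42 ± 0.22 between egressed and spleen did not pass (edgeR adjusted p = 0.731). Its near-copy Psme2b, at 36.3 to 38.0 CPM in spleen, 31.6 to 52.2 CPM in egressed and 23.0 to 55.1 CPM in tumor-retained libraries, shares 69.3% of its 50-base words with other genes, mostly Psme2, and Psme2 shares 59.3%, so counts of the pair are uncertain.

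Psme3 (chromosome 11, positions 101316213 to 101323537, plus strand) was at 282, 242, 244 and 213 CPM in spleen, 204, 171, 143 and 184 CPM in egressed and 152, 134, 172 and 134 CPM in tumor-retained libraries. Every egressed and every tumor-retained library was below every spleen library, while the egressed and tumor-retained groups overlapped. It fell by 0.72 ± 0.15 on the log2 scale in tumor-retained against spleen cells (edgeR adjusted p = 0.0292). It was -0.48 ± 0.15 for egressed against spleen, which did not pass (edgeR adjusted p = 0.276), and 0.24 ± 0.15 for egressed against tumor-retained cells (edgeR adjusted p = 0.496). With tumor-retained libraries 3 and 4 left out, the difference from spleen was -0.80 and did not pass (edgeR adjusted p = 0.0727), and with the replicate block it was -0.72 (edgeR adjusted p = 0.0789). The call was also lost without any 1 of the spleen libraries, without egressed library 2 or 4 and without tumor-retained library 1, 2 or 4. None of its 50-base words occurs in another gene.

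Psme4, which encodes a nuclear cap of the core, was at 45.6, 46.0, 48.4 and 56.3 CPM in spleen, 24.2, 21.6, 33.4 and 66.1 CPM in egressed and 25.4, 62.8, 49.8 and 41.1 CPM in tumor-retained libraries. Egressed libraries 1 to 3 and tumor-retained libraries 1 and 4 were below spleen and the others within or above it, and no difference passed.

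**Figure D5:**
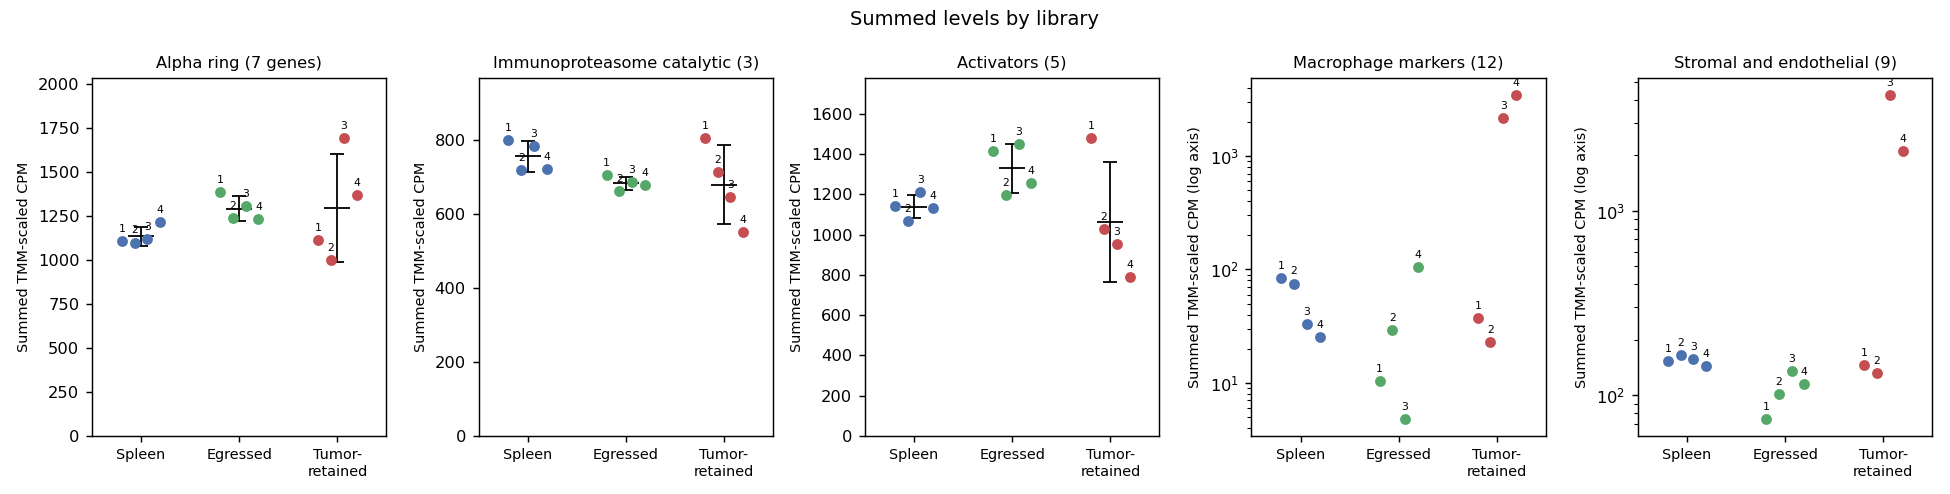
Summed TMM-scaled CPM (y axes) by library, numbered by replicate, of 3 roles of proteasome genes (from 0, with the mean and SD over 4 libraries) and of 2 marker lists of other cells (log axes, points only), for the 3 groups (x axes). The alpha ring sums are highest in tumor-retained library 3 (1695), the activator sums are lowest in tumor-retained library 4 (788), and both marker lists stand far higher in tumor-retained libraries 3 and 4 than elsewhere.

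The activators summed to 1481, 1029, 954 and 788 CPM in tumor-retained libraries 1 to 4, against 1070 to 1214 CPM in spleen and 1198 to 1452 CPM in egressed libraries. Tumor-retained libraries 3 and 4, which held the macrophage and stromal transcripts, had the 2 lowest activator sums of the 12 libraries and the highest and the third highest alpha ring sum. The part of those transcripts in these sums was not tested.

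Per length of transcript, the order of the members in spleen began with the activators. Psme2 was at 391 ± 20.1 and Psme1 at 389 ± 38.3 CPM per kb (SD, n = 4), which did not differ beyond their spread, followed by Psma7 at 288 ± 24.2, Psmb3 at 247 ± 15.1, Psmb9 at 203 ± 17.2, Psmb10 at 178 ± 13.5 and Psmb6 at 175 ± 16.1 CPM per kb. Psmb8 was at 153 ± 8.20, Psmb5 at 56.6 ± 5.39 and Psmb7 at 24.6 ± 2.37 CPM per kb. The lowest tested member was Psme4 at 7.56 ± 0.766 CPM per kb. Of the 50-base words of Psmb3, 55.8% also occur in other genes, so its level is uncertain. Such sharing was over 10% for 14 members, among them Psma3 (22.0%) and Psme1 (14.1%). The order depends on the length used: per summed length of all annotated exons Psmb10 was at 137 and Psmb2 at 121 CPM per kb, above Psma7 at 85.6, Psmb3 at 82.1, Psmb9 at 75.1 and Psmb6 at 74.5 CPM per kb. Apart from the assembly chaperones, each role of several genes had the same top and bottom gene in egressed and spleen cells.

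Around the proteasome, 18 tested genes of assembly, inhibition, recycling and transcriptional control gave no call in any of the 3 comparisons. At an unadjusted p under 0.05, none were higher or lower between egressed and tumor-retained cells (9.57% and 7.81% of all genes), 1 was higher and 3 lower between egressed and spleen (2.05% and 6.74% of all genes), and 3 were higher and 1 lower between tumor-retained and spleen (5.1% and 11.6% of all genes). Pomp, the chaperone that matures the beta ring, was at 136, 136, 140 and 137 CPM in spleen, 182, 164, 203 and 173 CPM in egressed and 128, 159, 257 and 205 CPM in tumor-retained libraries. Egressed libraries were all above spleen, and the differences from spleen of 0.40 ± 0.19 and 0.45 ± 0.19 did not pass (edgeR adjusted p = 0.624 and 0.248). Nfe2l1, the factor that raises proteasome transcription when activity drops, was at 93.9 to 116 CPM in spleen and 24.5 to 199 CPM in tumor-retained libraries. In egressed libraries 1 to 4 it was at 33.3, 73.3, 0.327 and 0.0415 CPM, all below every spleen library. Egressed libraries 3 and 4 had counts for fewer symbols than egressed libraries 1 and 2. Tumor-retained library 1, also with few symbols, was at 189 CPM. Nfe2l1 did not pass in any comparison (edgeR adjusted p = 0.44, 0.967 and 0.976).

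Of 14 tested interferon regulators and peptide supply genes, 2 passed between tumor-retained and spleen cells, 1 between egressed and tumor-retained cells and none between egressed and spleen cells. Both calls against spleen were higher, where 1.02% of all tested genes were, and the call between egressed and tumor-retained cells was lower, where 0.587% were. Ifng, the cytokine known to induce the immunoproteasome, was at 23.0, 18.5, 15.9 and 11.2 CPM in spleen, 123, 104, 15.5 and 77.4 CPM in egressed and 322, 187, 60.7 and 170 CPM in tumor-retained libraries. The tumor-retained libraries were all above spleen and 3 of 4 egressed ones were, and Ifng rose by 3.43 ± 0.62 in tumor-retained cells (edgeR adjusted p = 0.0109).

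Ifngr1, a chain of its receptor, was at 534 to 561 CPM in spleen, 526 to 1054 CPM in egressed and 1202 to 3661 CPM in tumor-retained libraries. It rose by 2.11 ± 0.30 in tumor-retained against spleen cells (edgeR adjusted p = 0.00259) and was lower by -1.49 ± 0.30 in egressed against tumor-retained cells (edgeR adjusted p = 0.0356). Irf1, a transcription factor of the interferon response, was at 454 to 561 CPM in spleen, 427 to 580 CPM in egressed and 483 to 729 CPM in tumor-retained libraries and did not pass.

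Nlrc5, the transactivator of MHC class I genes, was at 422, 425, 393 and 355 CPM in spleen, 275, 237, 351 and 331 CPM in egressed and 188, 298, 217 and 280 CPM in tumor-retained libraries. Egressed and tumor-retained cells were below spleen in every library, with differences of -0.42 ± 0.17 and -0.70 ± 0.17 that did not pass (edgeR adjusted p = 0.464 and 0.0602). Tap1, the peptide transporter subunit beside Psmb9, was at 504 to 588 CPM in spleen, 415 to 507 CPM in egressed and 371 to 582 CPM in tumor-retained libraries and did not pass.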

How the data were processed

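RNA was taken up in Takara lysis solution and libraries were made with the SMART-Seq v4 ultra-low input kit, which adds no molecular identifiers, per the labels' protocols. Limits given for a count of 0 therefore cover counting error only, while SEs and 95% intervals of fold changes come from the fit and cover the spread between libraries. Listed in the submitters' processing notes are STAR 2.7.3a, Bowtie2 2.5.1, Cufflinks 2.2.1, cutadapt 2.5 and the build mm10. Which program counted reads, with which annotation, strand setting and rule for multi-mapped reads, is not given in the sources used here. Raw counts per gene symbol, as deposited by the authors, were used, and their log2 normalized values were not.

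Counts were fitted with edgeR 4.0.16 in R 4.3.3 (filterByExpr, TMM, quasi-likelihood, 1 model of 3 groups over 12 libraries, no replicate block), with Benjamini-Hochberg adjustment over 21457 genes. limma 3.58.1 and DESeq2 1.42.0 were alternatives, and the fit was tested on simulated data. The simulation gave all genes and groups the same spread, below that of these libraries (common biological coefficient of variation 1.21). It therefore cannot show how the fit behaves on them. No libraries were copies (lowest chi-square per degree of freedom 17.6). Gene positions, exons, lengths and shared 50-base words came from GENCODE M21 on mm10, and CPM per kb used the principal transcript. Members, lists and settings were chosen with earlier results of these data known. Values by library are given for the catalytic subunits, Psme1 to Psme4 and members that passed, and others were picked after their values were seen. Some genes of the lists around the proteasome are not reported here.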

Additional observations from a re-analysis of the deposited data

Results flagged for a closer look

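In 5 of the 126 sets of 4 libraries of a tested member (3.97%, where chance gives about 5%), 1 library stood far from the others. Psmd2 was at 81.3 CPM in egressed library 4, where the other egressed libraries were at 184 to 205 CPM. In tumor-retained library 2, Psmb1 was at 148 CPM against 226 to 246 CPM in the others, Psmb6 at 104 CPM against 174 to 189 CPM, and Psmd3, a lid subunit, at 79.5 CPM against 166 to 178 CPM. Psmd10 was at 10.1 CPM in tumor-retained library 1 against 25.3 to 30.4 CPM in the others. All 5 were the lowest library of their group.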

How the results depend on the processing

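The 6 counts of members that passed and the log2 fold changes of 11 members were recomputed under 21 other settings. Of 693 recomputed fold changes over 3 comparisons and 21 settings, 612 kept their direction and side of the threshold, 55 changed direction, 24 lost and 2 gained a call, and none of those that changed direction had passed. The cause was not tested.

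No member passed between egressed and spleen in any of these settings. Between egressed and tumor-retained cells, 1 was higher (Psme1) without tumor-retained library 1 and 0 with any other single library left out. With egressed libraries 3 and 4 and tumor-retained library 1 left out together, 1 was lower (Psmc4, -0.76). Between tumor-retained and spleen cells the count of higher members was 0 with no low-count filter, 0 with the replicate block, 0 without tumor-retained libraries 3 and 4, 3 with the DESeq2 Wald test and 0 to 1 with single libraries left out. The count of lower members was 0 with DESeq2 size factors, 0 with no low-count filter, 0 with the replicate block, 0 without tumor-retained libraries 3 and 4 and 0 to 1 with single libraries left out. It was 2 (Psme3 and Psmb8, -0.45) without egressed libraries 3 and 4 and tumor-retained library 1. Psme3 passed in 8 of the 21 settings, with log2 fold changes of -0.82 to -0.54 and adjusted p of 0.0134 to 0.142. Psmd8 passed in 10, with 0.48 to 0.78 and adjusted p of 2.76e-05 to 0.235.

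The values whose direction turned are given with the main value in brackets. For egressed against tumor-retained cells, Psmb8 (0.05) was -0.107, Psmb5 (-0.30) 0.106 and Psme2 (0.24) -0.058 without tumor-retained libraries 3 and 4, and Psmb6 (0.03) was -0.012 with no low-count filter. Single libraries left out gave -0.012 to 0.186 for Psmb8 and -0.133 to 0.129 for Psmb6. For egressed against spleen, Psmb9 (0.00) and Psmb7 (-0.01) were 0.162 and 0.164 with DESeq2 size factors and in the DESeq2 Wald test. With library size only they were 0.132 and 0.127, with no low-count filter 0.024 and 0.016, and with only the 2 groups compared 0.070 and 0.060. Psmb9 was 0.001 in limma-trend and 0.003 with the replicate block. Single libraries left out gave -0.052 to 0.107 for Psmb9 and -0.283 to 0.215 for Psmb7.

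For tumor-retained against spleen, Psmb5 (-0.02), Psme1 (-0.08) and Psme4 (-0.13) were 0.152, 0.105 and 0.058 with DESeq2 size factors and in the DESeq2 Wald test. Psmb5 was 0.004 with library size only, 0.042 with no low-count filter and 0.054 with only the 2 groups compared, and Psme1 was 0.184 without tumor-retained libraries 3 and 4. Without egressed libraries 3 and 4 and tumor-retained library 1, Psmb5 was 0.113, Psme2 (0.18) -0.076 and Psme4 0.094. Single libraries left out gave -0.322 to 0.138 for Psmb5, -0.245 to 0.024 for Psme1, -0.051 to 0.319 for Psme2 and -0.354 to 0.119 for Psme4.

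DESeq2 size factors moved the median of all genes by 0.16 (egressed against spleen) and 0.19 (tumor-retained against spleen) and library size only moved it by 0.13 in the former. The members' medians were then 0.16, 0.23 and 0.13. Calls over all genes, higher and lower, were 109 and 126 between egressed and tumor-retained, 42 and 37 between egressed and spleen and 219 and 299 between tumor-retained and spleen cells. With the replicate block they were 34 and 44, 15 and 8, and 134 and 161, and with the DESeq2 Wald test 896 and 1034, 278 and 231, and 1027 and 762. With only the 2 groups compared they were 6 and 7, 117 and 113, and 502 and 802. Limma-trend gave 177 and 180, 69 and 185, and 248 and 658. No low-count filter gave 53 and 114, 32 and 9, and 191 and 151, and DESeq2 size factors 106 and 141, 70 and 20, and 322 and 178. Library size only gave 22 lower between egressed and spleen. Without tumor-retained libraries 3 and 4 it was 61. Without egressed libraries 3 and 4 and tumor-retained library 1 they were 227 and 215, 47 and 56, and 1068 and 1279. Single libraries left out gave 35 to 187 and 49 to 300, 4 to 65 and 1 to 58, and 113 to 322 and 110 to 391. The labels do not tie a number to a mouse, although the column names skip the same number in every group. Same-numbered libraries deviated together with correlations of -0.124 to 0.117 over all tested genes. Over members the correlations were 0.267 to 0.346 for replicate 1 and as low as -0.398 for replicate 2. In 5 of 24 cases a library correlated best with its own number. These values cannot decide whether a number marks a mouse, so the pairing entered only as the replicate block. Depth limits Psma8 and Psmb11, at a few counts in most libraries.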
